A study of Mus musculus with 2 samples.

Results

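The small proline-rich (Sprr) genes were followed in CD34-positive epithelial cells of mouse skin tumours. There was 1 Affymetrix Mouse 430 2.0 array per genotype, wild type or K14CreER:Rosa-VEGF-164. The labels name a mouse of each genotype but give no number of animals. The family was taken by name as 9 genes, Sprr1a, Sprr1b, Sprr2d, Sprr2f, Sprr2g, Sprr2h, Sprr2i, Sprr3 and Sprr4, out of 18194 genes that a platform annotation ties to probe sets of their own. A member was measured where a probe set (a group of short probes read as 1 value) was annotated to that gene alone. This held for 7 of the 9 members, with 1 probe set each. Sprr2g, a transcribed pseudogene in the RefSeq gene table, and Sprr4 had no probe set in the annotation and were not analysed here.

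Mice of both genotypes had received the carcinogen DMBA (9,10-dimethyl-1,2-benzanthracene) on postnatal days 23, 25 and 27. They then received TPA (12-O-tetradecanoyl phorbol-13-acetate), a tumour-promoting phorbol ester, for several weeks, and DMBA again when 7 weeks old. K14CreER is a Cre recombinase fused to an oestrogen receptor domain, driven by the keratin 14 promoter of basal epithelial cells, and Rosa-VEGF-164 places a VEGF-A isoform under its control. The inducing treatment, the age at sorting, the strain and any pooling of animals were not stated in the labels used here. Living cells were sorted after collagenase digestion with antibodies to CD34, α6-integrin and Epcam, and with antibodies to CD45, CD31 and CD140a that all carried the dye PE. With 1 array per genotype there is no replicate error and no test, so each difference below is between 2 arrays. In sorted bulk cells, more cells of a type and more RNA per cell cannot be told apart.

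Vegfa, the gene gained by design, went against the label, with a signal of 397 on the array labelled VEGF against 804 on the wild-type array, and 127 against 302 by its other probe set. Whether these probe sets read the transgene is not known here, so all directions below follow the label. Where a pair of signals is given as one against the other, the array labelled VEGF comes first. Krt5 and Krt14, the keratins of basal epidermis, were strong on both arrays (7875 against 8352, and 8571 against 8990, with log2 ratios of -0.71 and -0.12 by the other 2 probe sets of Krt14), as were Epcam (1905 against 1597, but with a log2 ratio of -1.16 by its other probe set) and Cd34 (751 against 430). All 5 markers of the sorted cells, Itga6 included, were above background on both arrays. Background was set on each array from olfactory and vomeronasal receptor genes, at a signal of 19.9 in wild type and 11.3 on the array labelled VEGF. The ratio of the 3′ to the 5′ control probe sets, which is larger where RNA or its copies are shorter, was 2.01 in wild type and 1.45 on the array labelled VEGF for Actb, and 1.15 and 0.91 for Gapdh.

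SPRR proteins are short, proline-rich precursors of the cornified envelope, the protein shell that replaces the membrane of dying keratinocytes. Transglutaminases crosslink them through glutamine and lysine residues at their ends, which lets them act as bridges between larger envelope proteins such as loricrin. In normal skin they belong to the differentiating upper layers, and the SPRR1 and SPRR2 types are known to be induced in wounds, under stress and in squamous tumours.

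All 7 measured Sprr members had a higher signal on the array labelled VEGF, and all 7 were at least 2-fold higher there. Of the 12195 genes of the array that gave a fold or bound, 3.87% passed 2-fold upwards and 8.54% passed it downwards. Of the 7 Sprr members, 0 had a lower signal. The median log2 ratio of the 7 members was 2.55, against -0.04 over all genes. Of the 7, 5 had ratios among the 100 highest of the array. The only error at hand is how far 2 probe sets for 1 gene differ, which gave an SD of the log2 ratio of 0.50, 0.42 and 0.32 in the lowest, middle and highest tertile of genes by signal. It leaves out the spread between mice, tumours, sorts and labelling reactions.

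**Figure D1:**
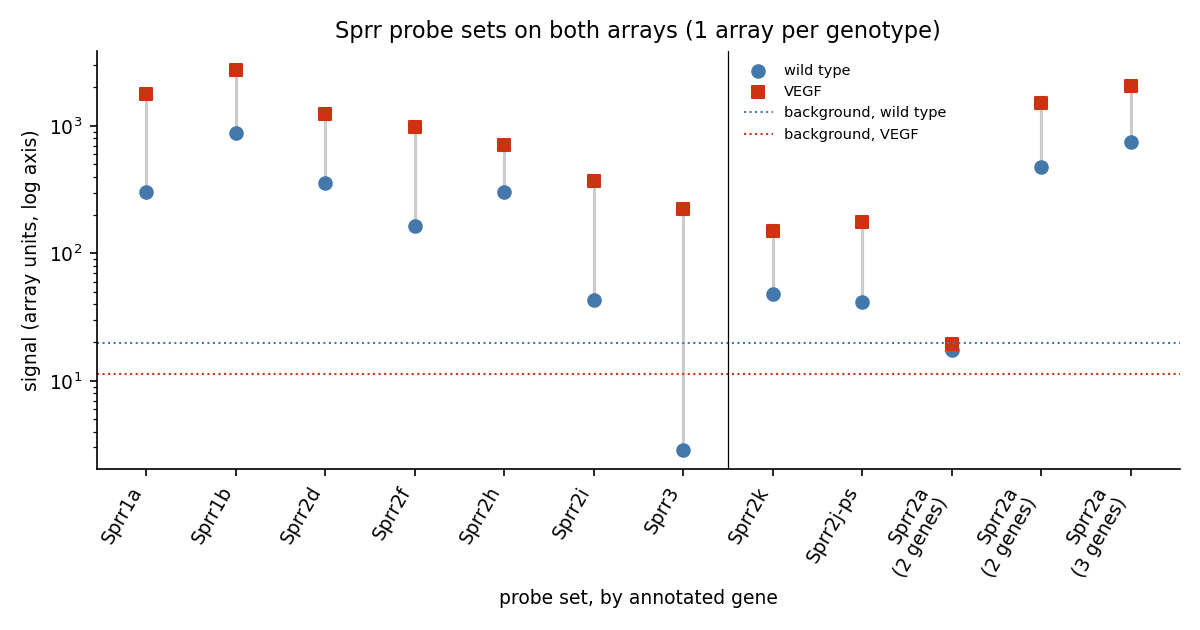
Signal of each Sprr probe set (vertical axis, array units, logarithmic) on the wild-type array (circles) and the array labelled VEGF (squares), with the background of each array as a dotted line; members stand left of the vertical line, other Sprr probe sets right of it. All 7 members are higher on the array labelled VEGF, and Sprr3 alone among them starts below the wild-type background, at 2.87.

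The SPRR1 genes are classic markers of squamous differentiation, and Sprr1a is also known for its induction in injured nerve cells. Sprr1a had a signal of 302 in wild type and 1765 on the array labelled VEGF, 5.84-fold higher (log2 ratio 2.55). Sprr1b had a signal of 874 and 2755, 3.15-fold higher (log2 ratio 1.66). Both were far above background on both arrays. The ratio of Sprr1a exceeded that of Sprr1b by 0.89 on the log2 scale, where the SD of a difference between 2 probe sets for 1 gene was 0.45 at this signal.

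The SPRR2 genes form the largest branch of the family and encode very similar proteins, shorter than those of the SPRR1 type. Sprr2i had the largest ratio of this branch, with a signal of 42.7 in wild type and 372 on the array labelled VEGF, 8.71-fold higher (log2 ratio 3.12). Sprr2f went from 165 to 981, 5.95-fold higher (log2 ratio 2.57). Sprr2d, described as a target of the oxidative stress factor Nrf2 in mouse skin, went from 355 to 1244, 3.51-fold higher (log2 ratio 1.81). The 3 genes were above background on both arrays, and in wild type only Sprr2d of them was over 10 times background.

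Sprr2h, also described as an Nrf2 target, was the member with the smallest ratio. Its signal was 302 in wild type and 704 on the array labelled VEGF, 2.33-fold higher (log2 ratio 1.22). Its probe set was the only one of the 7 ending in _s_at, a type whose probes can all match transcripts of several related genes, so its value may not be that of Sprr2h alone. None of the 7 ended in _x_at. The ratio of Sprr2i exceeded that of Sprr2h by 1.90, while the SD of a difference between 2 probe sets for 1 gene was 0.59 in the middle and 0.45 in the highest tertile of genes by signal. How far each SPRR2 probe set reads its near-identical relatives was not tested, since probe sequences were not used here.

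Sprr3, whose human counterpart is abundant in the lining of the mouth and oesophagus, was the member seen on only 1 array. Its signal was 223 on the array labelled VEGF, 19.7 times the background there, and 2.87 on the wild-type array, well below the background of 19.9. Set against that background, it was at least 11.2-fold higher (log2 bound 3.49).

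By size of ratio the members ran Sprr3, as a bound, then Sprr2i, Sprr2f, Sprr1a, Sprr2d, Sprr1b and Sprr2h. Neighbours in this order were often no further apart than probe sets of 1 gene. Sprr2f and Sprr1a differed by 0.03, Sprr2d and Sprr1b by 0.15, Sprr1b and Sprr2h by 0.44, and Sprr2i and Sprr2f by 0.55 on the log2 scale. The step from Sprr1a to Sprr2d was 0.74. The SPRR1 and SPRR2 branches overlapped, since both SPRR1 ratios lay between those of Sprr2h and Sprr2i.

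**Figure D2:**
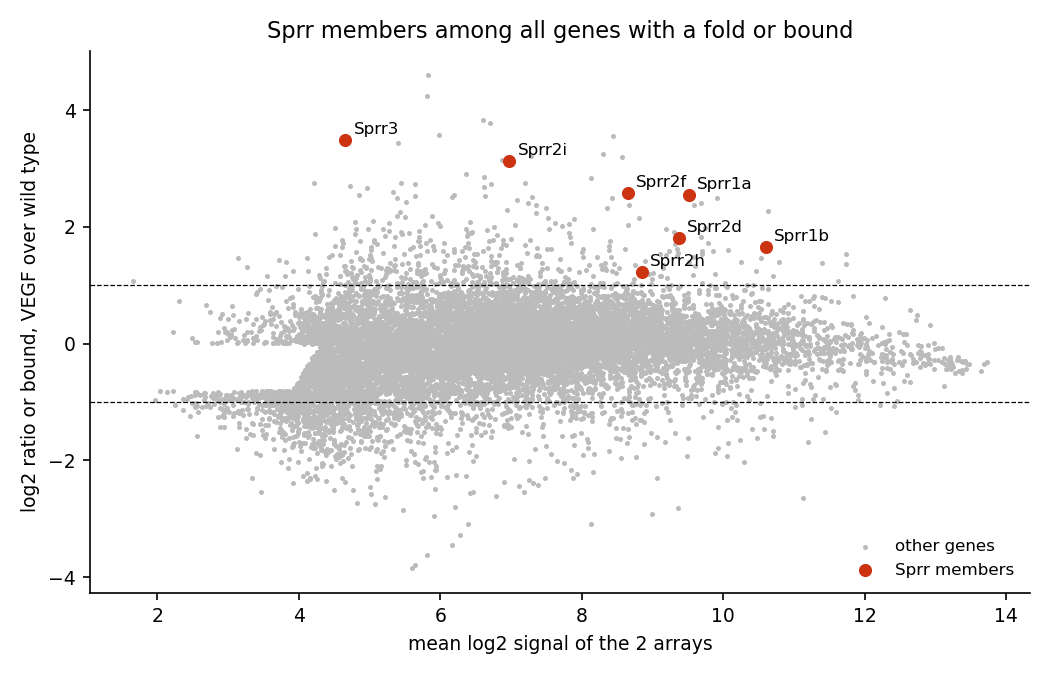
Log2 ratio or bound of each gene (vertical axis, array labelled VEGF over wild type) against its mean log2 signal (horizontal axis), with the 7 Sprr members in red, all other genes in grey and 2-fold marked by dashed lines. Every member lies above the upper line, from 1.22 for Sprr2h to 3.49 for Sprr3, and 6 of the 7 have ratios measured above background on both arrays.

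A further 5 probe sets were annotated to Sprr genes outside the 9 members. Sprr2k had a signal of 47.9 in wild type and 149 on the array labelled VEGF, 3.11-fold higher. The pseudogene Sprr2j-ps had 41.7 and 177, 4.23-fold higher. Thus all 9 Sprr genes with a probe set of their own, members or not, were at least 2-fold higher. How far the SPRR2 probe sets among them read one another was not tested, so these may not be 9 separate readings. The other 3 probe sets were shared between copies of Sprr2a, whose product has been described as antibacterial in the gut. One of them, annotated to 2 copies, had 472 and 1510, 3.20-fold higher, and the one annotated to 3 copies had 746 and 2053, 2.75-fold higher. The remaining one, also annotated to 2 copies, was near background on both arrays (17.4 and 19.3) and gave no fold.

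The bases just before the start of the 7 measured members are shown because these genes were higher together and their branches can be compared. The sequences are from RefSeq on GRCm38.p6, read 5′ to 3′ along the gene, and each ends 1 base before the annotated start. Capitals mark matches on either strand to TGANTCA, the site read by AP-1 (dimers of Fos and Jun proteins), to ATGCAAA, part of the octamer site of POU factors, here present as its reverse complement, and to TATAAA, the TATA box. The TATA box was added after the sequences had been read. The 4 SPRR2 promoters lie on the plus strand, at chr3:92338930-92339139 for Sprr2d, chr3:92364977-92365186 for Sprr2f, chr3:92385475-92385684 for Sprr2h and chr3:92407781-92407990 for Sprr2i.
Sprr2d: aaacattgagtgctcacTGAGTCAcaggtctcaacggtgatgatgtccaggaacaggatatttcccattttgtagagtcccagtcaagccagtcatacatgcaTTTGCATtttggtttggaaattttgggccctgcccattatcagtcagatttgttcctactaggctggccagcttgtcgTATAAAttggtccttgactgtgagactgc
Sprr2f: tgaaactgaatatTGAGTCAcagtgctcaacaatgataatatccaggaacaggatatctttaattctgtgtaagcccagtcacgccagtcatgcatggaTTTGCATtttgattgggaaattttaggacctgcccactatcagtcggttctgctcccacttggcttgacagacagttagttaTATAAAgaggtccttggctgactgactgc
Sprr2h: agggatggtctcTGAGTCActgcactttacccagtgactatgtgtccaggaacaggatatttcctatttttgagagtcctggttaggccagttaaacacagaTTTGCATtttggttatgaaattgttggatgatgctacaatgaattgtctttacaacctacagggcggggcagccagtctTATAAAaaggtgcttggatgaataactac
Sprr2i: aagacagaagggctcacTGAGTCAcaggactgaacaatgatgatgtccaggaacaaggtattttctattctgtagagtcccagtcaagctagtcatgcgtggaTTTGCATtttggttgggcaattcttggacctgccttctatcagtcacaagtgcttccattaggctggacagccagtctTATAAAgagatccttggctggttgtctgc

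The other 3 promoters lie on the minus strand, at chr3:92485882-92486091 for Sprr1a, chr3:92438780-92438989 for Sprr1b and chr3:92458721-92458930 for Sprr3.
Sprr1a: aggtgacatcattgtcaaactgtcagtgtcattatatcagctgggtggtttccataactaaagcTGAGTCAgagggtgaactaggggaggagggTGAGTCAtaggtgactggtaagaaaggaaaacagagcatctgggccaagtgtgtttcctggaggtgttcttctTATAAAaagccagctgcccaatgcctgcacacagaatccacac
Sprr1b: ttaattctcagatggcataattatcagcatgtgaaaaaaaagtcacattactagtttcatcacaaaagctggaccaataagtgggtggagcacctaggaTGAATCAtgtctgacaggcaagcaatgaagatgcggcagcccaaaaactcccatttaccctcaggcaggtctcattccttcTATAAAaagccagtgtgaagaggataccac
Sprr3: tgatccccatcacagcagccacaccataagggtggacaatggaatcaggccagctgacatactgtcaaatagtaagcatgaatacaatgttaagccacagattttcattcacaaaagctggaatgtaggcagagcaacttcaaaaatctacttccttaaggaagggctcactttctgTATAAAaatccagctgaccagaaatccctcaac

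All 4 SPRR2 promoters held an AP-1 match, an octamer match and a TATA box in the same order. The AP-1 match began 193 bases before the start in Sprr2d and Sprr2i, 197 in Sprr2f and 198 in Sprr2h. The octamer match began 86 bases further on in Sprr2d, Sprr2f and Sprr2i and 90 further on in Sprr2h, and the TATA box stood 29 bases before the start in all 4. Sprr1a had AP-1 matches 146 and 116 bases before the start, and Sprr1b had 1 at 111, while Sprr3 had none in the 250 bases searched. None of Sprr1a, Sprr1b and Sprr3 held the octamer letters, and all held a TATA box.

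Among all 32851 promoter entries of the table, 6.75% held the AP-1 letters in the same 250 bases, 4.12% the octamer letters and 12.4% the TATA letters, against 6, 4 and 7 of the 7 members. Of all 14 Sprr promoters in the table, measured or not, 9 held the AP-1, 7 the octamer and 10 the TATA letters. The SPRR2 promoters are related by descent and are not independent examples. Over the 250 bases they were between 60.1% and 77.5% identical in their 6 pairs, against 48.8% to 57.8% in the 15 pairs that involve another branch. The antioxidant element TGANNNNGC, read by Nrf2, was matched in 5 of the 7 members and in 35.2% of all entries, and in Sprr1a its only match overlapped an AP-1 match. Sprr2h and Sprr2i held no match, which says only that these letters are not in this window. GGAAGT, of ETS factors, was matched only in Sprr3 among the 7 members and in 19.7% of all entries. TTGCNNAA, of C/EBP factors, was matched only in Sprr2i and in 9.56% of entries. AACCNGTT, of Grainyhead factors, was matched in 0 of the 7 and in 1.79% of entries. A match describes letters and not binding, and no binding was measured.

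**Figure D3:**
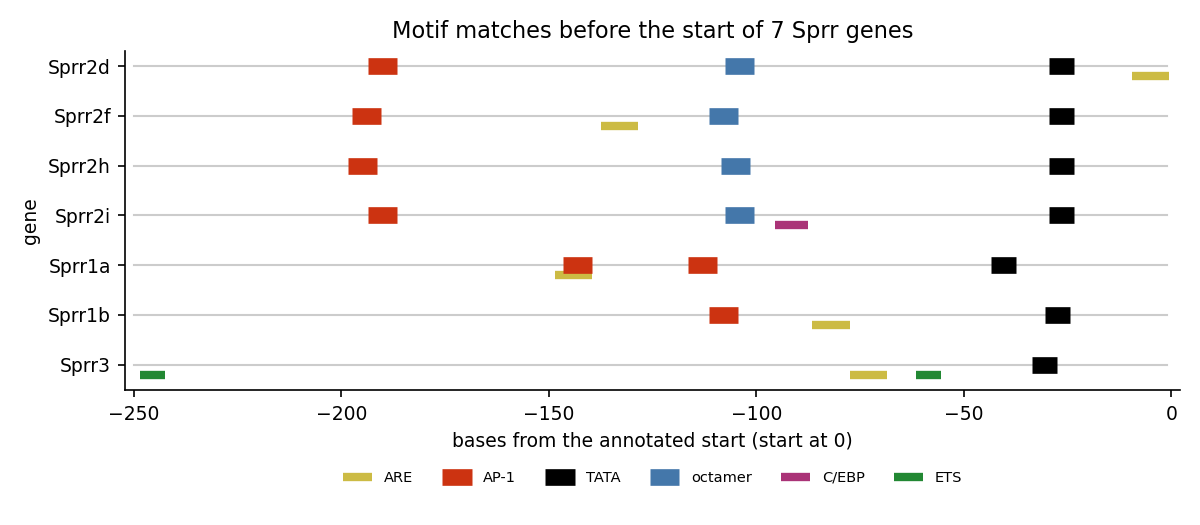
Positions of motif matches (bars) in the 250 bases before the annotated start of the 7 measured members (rows; horizontal axis in bases from the start), with AP-1, octamer and TATA matches as thick bars and the antioxidant element (ARE), ETS and C/EBP matches as thin bars. The 4 SPRR2 genes share AP-1 matches between 193 and 198 bases and octamer matches between 107 and 111 bases before the start.

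The Sprr genes lie side by side on chromosome 3, in the epidermal differentiation complex, a cluster of genes for the outer epidermis. Gene order was taken from the gene table, from S100a1 to S100a11, and 48 of the 99 genes listed there were measured. The 9 measured Sprr genes formed an unbroken run, all at least 2-fold higher, with a median log2 ratio of 2.08. The SPRR2 probe sets in this run may read one another, which was not tested. The measured gene just before the run, Lelp1, a late envelope-like gene, had a signal of 21.3 in wild type and 9.47, below background, on the array labelled VEGF, at least 1.88-fold lower there. Its wild-type signal was close to the background of 19.9, so this bound rests on the lower background of 11.3 on the other array. The measured gene just after the run was Ivl, which encodes involucrin, an early envelope scaffold, with a signal of 127 in wild type and 113 on the array labelled VEGF (log2 ratio -0.18).

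The rest of the complex was mixed. Outside the Sprr run, 11 of the 24 genes that gave a fold or bound passed 2-fold upwards and 1 passed it downwards (median 0.51). All 4 measured Lce3 genes, for late envelope proteins linked to repair, were at least 2-fold higher (median 2.30), against 1 of 3 Lce1 genes with a fold, the other 8 of the 11 measured Lce1 genes having none. The probe sets of Lce3b, Lce3c and Lce1i, which passed 2-fold, end in _x_at, and their values may not be of those genes alone. Of 10 S100 genes that gave a fold or bound, 4 were at least 2-fold higher. The largest ratio was that of S100a4 (2284 against 407, 5.61-fold), and S100a3 had 83.0 against 35.1. The others were S100a8 (1279 against 455) and S100a9 (729 against 146), which stressed keratinocytes and neutrophils both make. Flg, which encodes filaggrin, and Hrnr, its relative hornerin, were not above background on either array, and Tchh, which encodes trichohyalin of the hair follicle, was 2.02-fold lower (41.7 against 84.3). Of the 20 measured genes beyond each end of the complex, 0 passed 2-fold upwards on either side and 1 on each side passed it downwards, Gm19710 as a bound and Selenbp1, which encodes a selenium-binding protein (35.2 against 208).

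**Figure D4:**
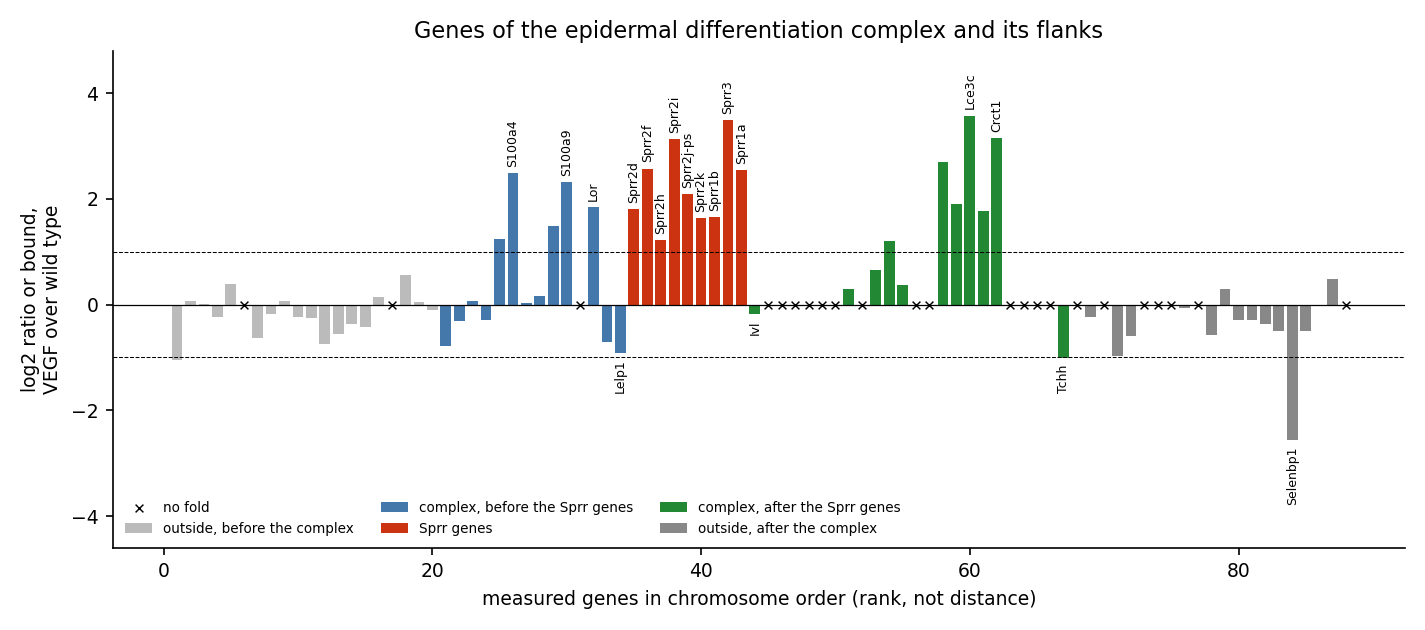
Log2 ratio or bound (vertical axis, array labelled VEGF over wild type) of the measured genes of the epidermal differentiation complex and of 20 measured genes beyond each end, in chromosome order (horizontal axis, rank); crosses mark genes with no fold and dashed lines mark 2-fold. The 9 Sprr genes (red) are all above the upper line, between Lelp1 at -0.91, a bound from signals near or below background, and Ivl at -0.18.

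Genes that work with the SPRR proteins were then set beside them, as lists drawn up with earlier results of these arrays known. The list held 40 cornified envelope precursors, many of them also in the complex. A probe set was present for 32, and 20 of these gave a fold or bound. Among the 20, 11 passed 2-fold upwards and 1, Tchh, downwards. Lce3a, Lce3c and Lce1i, counted in the 11, lay below the wild-type background, so their folds are bounds. The median log2 ratio of the 20 was 1.09, and it ran from 0.31 (offset of 50) to 1.15 (stricter filter) in the other settings. With no floor all 32 had a value, 14 passed 2-fold upwards and 3 downwards, and the median was 0.58. Lce3c (237 against 17.0, at least 11.9-fold), Crct1 (349 against 39.5, 8.83-fold), Lce3a (129 against 5.44, at least 6.51-fold) and Cnfn, which encodes cornifelin (349 against 65.5, 5.33-fold), had the largest ratios. The probe set of Lce3c ends in _x_at, so its value may not be that of Lce3c alone. Without _x_at and _s_at probe sets, 8 of 16 precursors passed 2-fold upwards. Krtdap, a secreted keratinocyte protein and the member of this list with the strongest signal, had 6754 against 7354. The SPRR partner loricrin, encoded by Lor, was 3.60-fold higher (157 against 43.7), with a log2 ratio of 2.53 by its other probe set.

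Of 18 crosslinking and late differentiation enzymes that gave a fold or bound, 7 passed 2-fold upwards and 1 downwards (median 0.76). The transglutaminase genes Tgm3 (745 against 105, 7.12-fold) and Tgm1 (582 against 192, 3.03-fold), whose enzymes are known to crosslink SPRR proteins, were among the 7, as was Cers3, a ceramide synthase gene (443 against 150, 2.96-fold). The other probe set of Tgm3 gave a log2 ratio of 2.01. Klk8, a kallikrein protease gene, was 3.45-fold lower (522 against 1802).

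Keratins were read by layer, as the partners of the envelope inside the cell. Of 7 differentiation keratins with a fold, from 9 listed, 4 passed 2-fold upwards and 0 downwards, led by Krt13 (1761 against 338, 5.21-fold) and Krt4 (215 against 65.8, 3.27-fold), the pair of internal stratified epithelia. Krt1 of the upper epidermis was 2.94-fold higher (1124 against 382) and Krt78 2.17-fold, whereas its partner Krt10 had 2736 against 2525. Of 4 wound keratins, 1 was at least 2-fold higher, Krt16 (4574 against 2167, 2.11-fold). Krt6a had 8752 against 10263, but its other 2 probe sets gave log2 ratios of 0.36 and 0.37. Krt17 had 4871 against 5213 (log2 ratio -0.10, and -0.93 by its other probe set) and Krt6b 7771 against 5235. Of 12 basal keratinocyte genes, 0 passed 2-fold upwards and 1 downwards, Krt15 (999 against 2806, 2.81-fold lower), and their median of -0.02 changed sign between settings. Trp63, the p63 factor of basal cells, had 1587 against 2706 (log2 ratio -0.77), and its other 3 probe sets ranged from -2.52 to -0.37. Itga6 had 2421 against 3952 and Dst, which anchors keratin to the basement membrane, 1095 against 756.

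**Figure D5:**
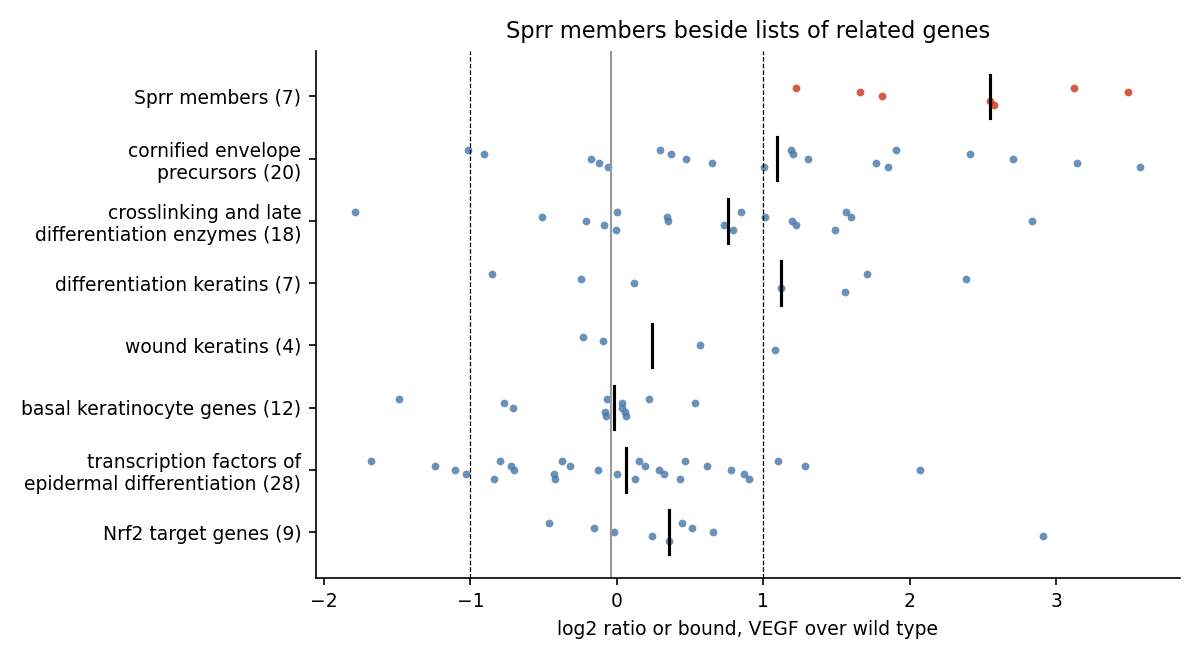
Log2 ratio or bound of single genes (points; horizontal axis, array labelled VEGF over wild type) in each list (rows, number of genes in brackets), with the list median as a black bar, 2-fold as dashed lines and the median of all genes as a grey line. The Sprr members have a median of 2.55, the envelope precursors 1.09, the differentiation keratins 1.12 and the basal genes -0.02. In the other settings the precursor median ran from 0.31 to 1.15 and that of the differentiation keratins from 0.12 to 1.63.

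Transcription factors of epidermal differentiation went both ways, with 3 of 28 past 2-fold upwards and 4 downwards. Their median of 0.06 was -0.08 with the median over probe sets. Grhl3, a Grainyhead factor of barrier formation, was 4.19-fold higher (402 against 96.1), and Ehf, an ETS factor of epithelia, 2.43-fold (191 against 78.4). Jund (1316 against 4218, 3.21-fold lower) and Maf (985 against 2326, 2.36-fold lower) were at the other end. The other 4 probe sets of Maf gave log2 ratios from -1.74 to -0.61. Of the 7 Fos and Jun family genes in the list, whose proteins make up AP-1, 0 were at least 2-fold higher, 2 were at least 2-fold lower and 6 had a log2 ratio below 0, with a median of -0.80. These 6 of 7 held in each of the 10 other settings, with medians from -0.80 to -0.39. Fos had 6942 against 9373. Fosl1 was the one above 0, with 582 against 433. Which of the 7 passed 2-fold depended on the probe set. Fosl2, counted as lower, had a log2 ratio of -1.03, and -0.41 by its other probe set. Jun, not counted, had -0.84, and -1.63 by its other probe set.

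Of 9 measured Nrf2 target genes, 1 passed 2-fold upwards, Slc7a11, a cystine transporter gene (226 against 30.2, 7.49-fold, with a log2 ratio of 1.75 by its other probe set), and 0 passed it downwards. The median log2 ratio of the 9 was 0.35, with 6 above 0 and 3 below. In the other settings 6 to 8 of the 9 were above 0. Nqo1, a quinone reductase gene, had 341 against 239, Gclm 3225 against 3266 and Hmox1 137 against 189. Txnrd1 had 252 against 160 (log2 ratio 0.65, and 0.14 by its other probe set). Nfe2l2, which encodes Nrf2, had 2233 against 1960 (log2 ratio 0.19, and -0.24 by its other probe set).

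Markers of other cells were then read in the same way. The 6 fibroblast markers had a summed signal of 2642 on the array labelled VEGF against 1119, with 6 against 5 above background and 2 of 6 at least 2-fold higher, Col1a2 (942 against 324) and Col3a1 (1235 against 490). The 11 measured immune markers summed to 228 against 298, signals below background included, with 5 above background on each array. Of them, Cd8a passed 2-fold downwards (22.2 against 59.6). Its probe set ends in _x_at, so the value may not be that of Cd8a alone, and Cd3e and Cd4 were not above background on either array. The 6 endothelial markers summed to 126 against 89.0, with 4 against 2 above background. The 4 melanocyte markers summed to 129 against 276, with 3 against 2 above background and Dct past 2-fold downwards (53.6 against 153). Background was lower on the array labelled VEGF. Of all probe sets with 1 gene, 65.2% lay above it there, against 58.3% in wild type. Mlana counted as above background only there, although its signal was lower (15.3 against 18.2). No marker signal was exactly 0. Of the genes for the 3 antigens that shared a dye in the sort, Pdgfra (CD140a) had 34.7 against 9.86, at least 1.75-fold higher, and Pecam1 (CD31) 22.0 against 3.07, at least 1.11-fold higher. Ptprc (CD45) had 17.3 against 14.4 and gave no fold. All 3 were above background on the array labelled VEGF and below it in wild type. For Ptprc this rests on the unequal backgrounds, since 17.3 lies above 11.3 but below the wild-type background of 19.9. The part of these cells, of RNA quality and of the share of differentiating cells in the sort in the Sprr values was not tested.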

How the data were processed

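CD34-positive tumour epithelial cells were measured with 1 array per genotype, from 100 ng of RNA per sample. The deposited values are log2 signals per probe set, and the submitters' processing notes name MAS5; neither version nor scaling target is given in the sources used here. After anti-logging, both arrays had a 2% trimmed mean of 100.04, with median signals of 22.6 (wild type) and 17.3 (labelled VEGF). Of 45101 probe sets, 34958 had 1 annotated gene, 932 several and 9211 none.

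Signals were floored at background, the 90th percentile of 80 olfactory and vomeronasal receptor probe sets on each array. Each gene was read from its brightest probe set (by mean log2 signal). Genes were counted as higher or lower from 2-fold upwards. With 1 array above background the fold is a bound, and bounds under 1-fold were dropped. Array number limits the precision. All members, the list genes with the 4 largest ratios in size, and the most abundant of each list were to be named. Others, among them Lor, Fosl1, Nfe2l2, Ptprc, and the genes of the complex, were named after their values were seen. The members and lists were chosen with earlier results of these data known.

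The error between probe sets used the 2 brightest probe sets above background on both arrays for each of 4887 genes. Promoters were aligned end to end with Biopython 1.88 (match 1, mismatch -1, gap opening -2, extension -0.5). Counting was tested on 2 simulated arrays, both made from the wild-type values with noise smaller than the SD between probe sets. The changes set in them were larger than 2-fold and only in genes well above background. That test therefore says nothing of counts near 2-fold or near background. Other settings were no floor, a common floor, the array median as floor, an offset of 50, quantile and loess normalization (statsmodels 0.14.6, span 0.4), the median over probe sets, no _x_at or _s_at probe sets, a stricter filter and, added after the data were seen, median-centred ratios. For the offset setting, signals on the array labelled VEGF were first scaled up to the median signal of the wild-type array. The offset of 50 was then added on both arrays. Protein sequences were not used here.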

Additional observations from a re-analysis of the deposited data

How the results depend on the processing

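In each of the 10 other settings, every Sprr member with a value was at least 2-fold higher and 0 were lower. Sprr2h had no value without _x_at and _s_at probe sets, where 6 of 6 were higher, and Sprr3 none under the stricter filter (both arrays above background, mean signal at least 4 times background), where again 6 of 6 were higher. Of 68 member ratios recomputed, 0 reversed and 0 fell under 2-fold, and 4 moved by more than the SD between probe sets. With the offset of 50 these were Sprr1b (1.99 on the log2 scale), Sprr2i (2.54) and Sprr3 (2.69), and with no floor Sprr3 (6.28), whose size rests on a wild-type signal below background. Sprr2h ranged from 1.15 after quantile normalization to 1.47 with the offset. The offset setting also scaled up the array labelled VEGF, so its values are not the effect of an offset alone.

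The counts over all genes moved more. With no floor 1675 genes passed 2-fold upwards and 2770 downwards. The lower genes numbered 624 with the common floor, 83 with the offset, 596 after quantile and 565 after loess normalization, and 298 under the stricter filter, with 297 higher. Among genes past 2-fold in either direction, the share higher was 31.2% with each array's own background as floor, 37.7% with no floor, 43.1% with the common floor, 51.1% and 53.5% after quantile and loess normalization, 49.9% under the stricter filter and 86.1% with the offset, which moved the median of all genes by 0.15. Because the offset setting also scaled the array labelled VEGF up to the wild-type median, its counts mix that scaling with the offset. The share of all genes at least 2-fold higher lay between 2.83% (offset) and 9.21% (no floor). Of 140 counts recomputed for the lists, 12 differed by over 1.5 times: the envelope precursors at least 2-fold higher numbered 6 under the stricter filter, where 10 had a value, and those lower ranged from 0 to 3; the transcription factors numbered up to 5 higher (offset) and down to 1 lower; the lower enzymes and differentiation keratins numbered 2 and 1 with no floor. No paired analysis was possible because each genotype had 1 array and the results come from no test. The wild-type signal of Sprr3 lay below background, which leaves its fold as a bound.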
